A study of Mus musculus with 7 samples.

Results

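The genes described here are the TNF superfamily ligands of lung CD11b+ conventional dendritic cells (cDC2s): Tnf, Tnfsf4, Tnfsf8, Tnfsf9, Tnfsf10, Tnfsf13, Tnfsf13b, Tnfsf14, Tnfsf15 and Cd70. A gene entered through an array probeset whose platform annotation names it alone, and 9 of the 10 listed genes, of 19939 genes measured in all, had 1 such probeset each. Tnfsf13 shares its probeset with Tnfsf12 and a fusion transcript, so it is named here without a value. The series holds 7 Affymetrix Mouse Gene 1.0 ST arrays. For each array, lung cells of 10 female C57Bl/6 mice were pooled, and the sort kept CD11b+ cells with CD11c and MHC2 and without Ly6C and CD64. The groups were Irf3-deficient mice given 100 µg of house dust mite extract (3 arrays), wild type mice given the same extract (2 arrays) and wild type mice given saline, labelled PBS (2 arrays), with cells taken 12 hours later. The labels name no Irf3 allele and no age, and a saline-treated Irf3-deficient group was not analysed here. The comparisons address how these ligand genes respond to the allergen and how their levels differ in mice that lack Irf3, which encodes a factor that activates interferon genes after innate sensing.

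TNF superfamily ligands are mostly trimeric proteins held in the cell membrane, some of which are cut and released, and they signal through receptors of the TNF receptor superfamily. On dendritic cells many of them deliver costimulation to T cells: OX40 ligand (Tnfsf4), 4-1BB ligand (Tnfsf9), CD70, CD30 ligand (Tnfsf8), LIGHT (Tnfsf14) and TL1A (Tnfsf15). TRAIL (Tnfsf10) can trigger death of cells that carry its receptor, BAFF (Tnfsf13b) and APRIL (Tnfsf13) sustain B cells and plasma cells, and TNF drives inflammation.

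Values are log2 expression levels on the scale the authors deposited, so a difference of 1 is a 2-fold change. Irf3 itself followed the labels, with a level of 8.23 ± 0.09 in treated Irf3-deficient cells (SD, n = 3), against 9.58 ± 0.01 in treated and 9.52 ± 0.06 in untreated wild type cells (SD, n = 2 each). Arrays of 1 group correlated over all genes at 0.995 to 0.997, and arrays of different groups at 0.973 to 0.990. Of 10 cDC2 markers, the brightest were Cd209a, between 13.40 and 13.96 over the 7 arrays, and H2-Ab1, between 14.14 and 14.29. The dimmest, Zbtb46, lay between 9.51 and 10.09. As a low level for comparison, the 95th percentile of 1194 olfactory and vomeronasal receptor genes was between 7.17 and 7.22 in the 3 groups. Of the T, NK and B cell markers, Cd3d, Cd3g, Klrb1c, Ncr1, Ms4a1, Cd79a and Pax5 lay under it in every group and Gzmb in 2 groups, while Cd3e, Cd4, Cd8a, Prf1 and Cd79b lay above it in every group. All 5 markers of cDC1s (Xcr1, Clec9a, Itgae, Batf3 and Cadm1) lay above it in every group. So did all 5 of alveolar macrophages (Siglecf, Marco, Chil3, Pparg and Car4). No ligand gene described here had a group mean under that level. These are bulk samples, in which fewer cells of a type and less RNA per cell cannot be told apart.

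House dust mite moved most of these ligand genes in wild type cDC2s, and the treated Irf3-deficient cells differed from treated wild type cells for most of them. In limma, at an adjusted p under 0.05 over all genes, 6 of the 9 rose and 2 fell in treated against untreated wild type cells, where 17.6% of all genes passed, 8.35% higher and 9.23% lower. Treated Irf3-deficient against treated wild type cells had 6 lower and 1 higher, where 19.7% of all genes passed, 9.0% lower and 10.7% higher. Treated Irf3-deficient against untreated wild type cells had 3 higher and 2 lower, where 10.8% of all genes passed, 5.89% higher and 4.90% lower. All 9 passed the F test over the 3 groups, as did 25.5% of all genes. The median log2 difference of the 9 was 0.84, -0.93 and 0.02 in these comparisons, against 0.03, 0.0022 and 0.04 over all genes. The comparisons share arrays with each other, so their values are set side by side and are not independent. The last count rests on few arrays: without untreated wild type replicate 1, only Tnfsf14 passed. In that comparison the treatment and the genotype differ together, so a difference present before treatment cannot be told apart from a response to mite extract.

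**Figure D1:**
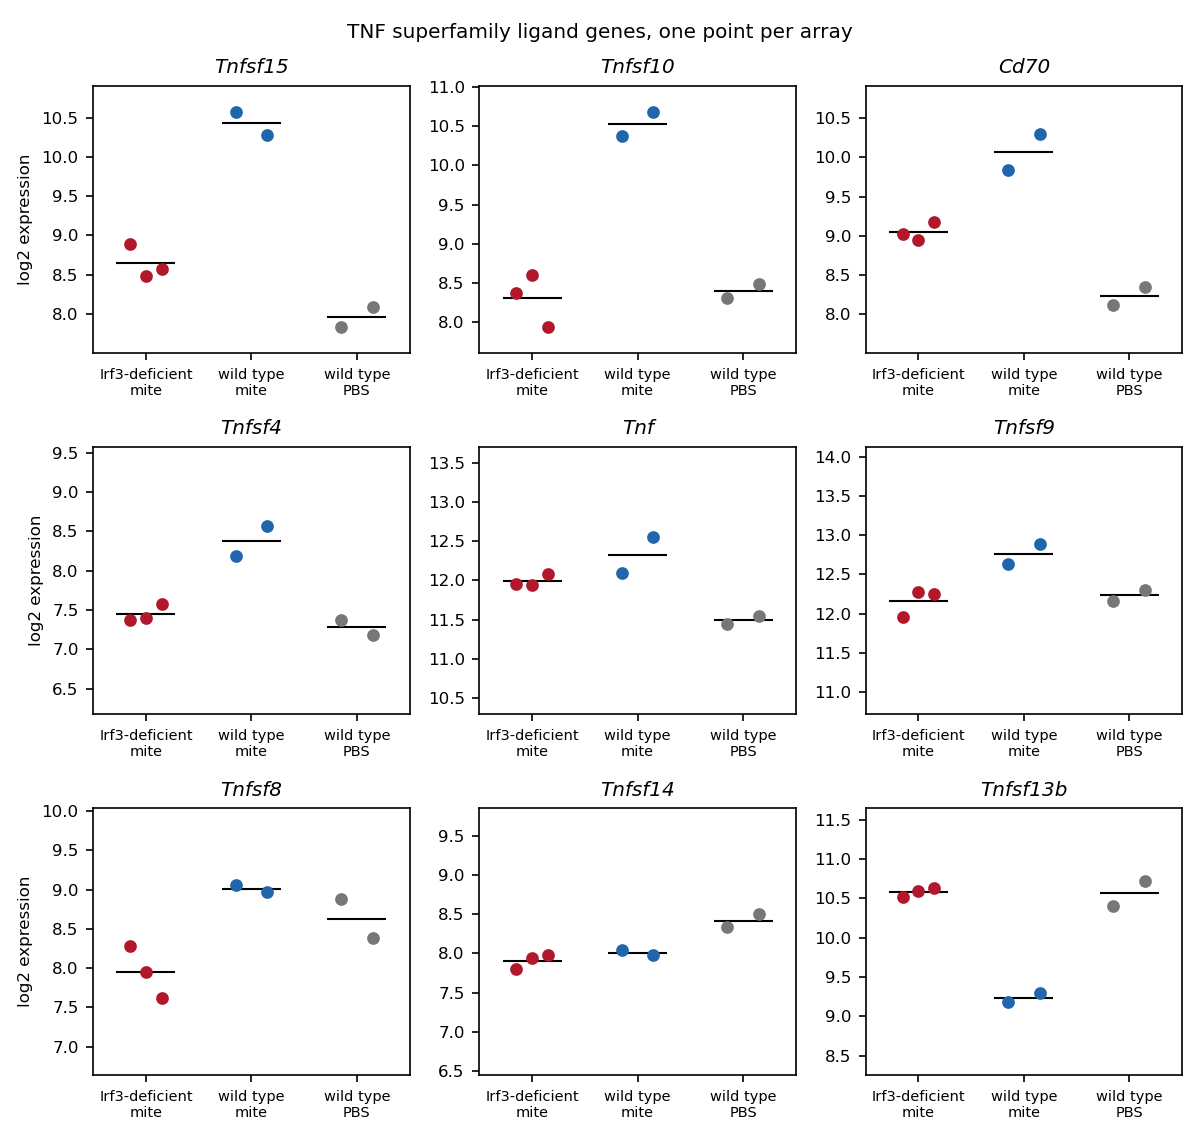
Log2 expression of the 9 ligand genes in each array, with a bar at each group mean (3 Irf3-deficient mite, 2 wild type mite and 2 wild type PBS arrays). Every panel spans the same number of log2 units around its own centre; the wild type mite arrays are highest for Tnfsf15, Tnfsf10, Cd70, Tnfsf4, Tnf, Tnfsf9 and Tnfsf8 and lowest for Tnfsf13b.

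Tnfsf10, the gene of TRAIL, had the largest difference between the genotypes of the 9. Its level was 8.37, 8.60 and 7.94 in treated Irf3-deficient cells, against 10.37 and 10.68 in treated wild type samples and 8.30 and 8.48 in untreated wild type cells. Both treated wild type arrays stood far above the other 5, and the Irf3-deficient and untreated wild type arrays overlapped. It rose 4.38-fold with treatment in wild type cells (95% CI 3.30 to 5.81, adjusted p = 5.86e-06 in limma). In treated Irf3-deficient cells it was 4.66-fold lower than in treated wild type cells (95% CI 3.60 to 6.03, adjusted p = 2.11e-06). Against untreated wild type cells the log2 difference was -0.09, with a 95% interval from -0.46 to 0.28 (adjusted p = 0.821). Genotype and treatment differ together there, so that interval does not measure the response of Irf3-deficient cells to mite extract. The 3 genes with the closest profile, by the root mean square distance between mean-centred log2 levels over the 7 arrays, were Tor3a (0.160), Gbp3 (0.180) and Nmi (0.193), among 5081 genes that passed the F test.

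Tnfsf15, the gene of TL1A, had the largest rise of the 9 in wild type cells and was above the untreated wild type level in treated Irf3-deficient cells. Levels were 8.89, 8.49 and 8.58 in treated Irf3-deficient cells, 10.57 and 10.28 in treated wild type samples and 7.84 and 8.09 in untreated wild type cells. No 2 of the groups overlapped, and the Irf3-deficient arrays lay between the wild type groups. The rise in wild type was 5.52-fold (95% CI 4.36 to 6.99, adjusted p = 3.14e-07 in limma). Irf3-deficient cells were 3.43-fold lower than treated wild type cells (95% CI 2.76 to 4.25, adjusted p = 2.89e-06) and 1.61-fold higher than untreated wild type cells (95% CI 1.30 to 2.00, adjusted p = 0.00867). Without untreated wild type replicate 1, that last difference was 0.56 on the log2 scale and did not pass (adjusted p = 0.127). The nearest profiles were those of Slc44a5 (distance 0.142), Stat2 (0.150) and Irgm1 (0.158).

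Tnfsf10, Tnfsf15 and Tnfsf13b, described next, had the 3 largest differences between the treated genotypes among the 9, so their RefSeq promoters are shown. Of the 10 listed genes, 7 had a promoter entry in the RefSeq table of build GRCm38.p6, and the 250 bases before each annotated start were searched on both strands. The letters AANNGAAA, a core recognised by interferon regulatory factors, are set in capitals, read on the strand shown or on the other one. They occurred in 21.3% of all 32851 promoters of that length, counted per annotated start. Among these 7 genes they occurred in Tnfsf8, Tnfsf10, Tnfsf13b and Tnfsf15, for Tnfsf13b only before the second of its 2 annotated starts.
Tnfsf10, chr3:27316827-27317076, plus strand, bases 250 to 1 before the start: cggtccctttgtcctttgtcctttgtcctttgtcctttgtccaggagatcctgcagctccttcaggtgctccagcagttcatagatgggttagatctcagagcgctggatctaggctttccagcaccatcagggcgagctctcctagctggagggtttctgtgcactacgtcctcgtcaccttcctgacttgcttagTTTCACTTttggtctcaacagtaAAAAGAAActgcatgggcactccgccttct
Tnfsf15, chr4:63745060-63745309, minus strand, bases 250 to 1 before the start: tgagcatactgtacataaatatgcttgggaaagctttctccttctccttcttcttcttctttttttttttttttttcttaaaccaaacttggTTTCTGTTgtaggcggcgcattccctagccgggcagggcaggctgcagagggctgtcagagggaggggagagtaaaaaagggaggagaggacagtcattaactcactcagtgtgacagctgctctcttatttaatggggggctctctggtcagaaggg
Tnfsf13b, chr8:10006603-10006632, plus strand, the last 30 bases before the second of 2 annotated starts: atcttacaaaAACTGAAAGTGAAAtgcgga
In Tnfsf10 the core lay at bases 53 to 46 before the start on the other strand and at bases 30 to 23 on the strand shown. Tnfsf15 held 1 match, at bases 158 to 151 on the other strand. The capitals in Tnfsf13b are overlapping matches at bases 20 to 13 and 14 to 7, and they contain the tandem form GAAANNGAAA at bases 16 to 7. That window held 1 more core match, at bases 160 to 153, and the window of the first annotated Tnfsf13b start held 0. The tandem form occurred in 2.98% of all promoters of that length and in no other of these 7 genes. These are letter matches in RefSeq sequence, and binding was not measured.

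Tnfsf13b, the gene of the B cell survival factor BAFF, was the only one of the 9 that was higher in treated Irf3-deficient than in treated wild type cells. Levels were 10.52, 10.60 and 10.63 in treated Irf3-deficient cells, 9.19 and 9.29 in treated wild type samples and 10.41 and 10.72 in untreated wild type cells. The treated wild type arrays were the lowest, and all Irf3-deficient arrays fell between the untreated wild type arrays. With treatment it fell 2.51-fold in wild type cells (95% CI 2.07 to 3.03, adjusted p = 1.11e-05 in limma). It was 2.54-fold higher in treated Irf3-deficient than in treated wild type cells (95% CI 2.14 to 3.02, adjusted p = 4.72e-06). The log2 difference between treated Irf3-deficient and untreated wild type cells was 0.02, with a 95% interval from -0.23 to 0.27 (adjusted p = 0.946), and its sign turned after median centring or quantile normalisation. The nearest profiles were those of Dpep2 (distance 0.0868), Kcnj10 (0.109) and Cyp4f18 (0.114).

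Macrophage marker genes also differed between the groups. Of 7 measured markers of the list of 8, 6 were lower and 1 higher in treated against untreated wild type cells, where 17.6% of all genes passed. In treated Irf3-deficient against treated wild type cells 5 were higher and 2 lower, where 19.7% of all genes passed. The summed log2 level of the 7 ranged from 71.97 to 73.21 in treated Irf3-deficient arrays, from 68.41 to 71.58 in treated wild type arrays and from 76.40 to 78.98 in untreated wild type arrays. None of the 7 lay under the level of the olfactory and vomeronasal receptor genes. C1qa, C1qb, Mertk, Adgre1 and Cd163 fell in wild type, by log2 differences between -0.59 and -2.05, and were higher in Irf3-deficient cells after treatment, by 0.56 to 1.53. Their direction was that of Tnfsf13b in both comparisons. Between treated Irf3-deficient and untreated wild type cells, Adgre1 (-0.88) and Cd163 (-0.90) were lower, while Tnfsf13b stood at 0.02. C1qa, C1qb and Mertk did not pass there (-0.62, 0.32 and -0.03). Apoe fell in wild type (-2.03) and was lower in Irf3-deficient than in wild type cells after treatment (adjusted p = 0.00164). Fcgr1, the gene of CD64, against which the cells were sorted, rose by 1.79 in wild type and differed by -1.67 between the treated genotypes. Of 10 cDC2 markers, 4 were lower and 1 higher in treated against untreated wild type cells, beside the same 17.6% of all genes. In treated Irf3-deficient against treated wild type cells 5 were higher and 1 lower, beside 19.7%. Their summed log2 level ran from 122.3 to 123.6 in Irf3-deficient, from 120.4 to 120.5 in treated wild type and from 123.58 to 123.60 in untreated wild type arrays. Itgam, Cd209a, Mgl2 and Clec10a were the 4 lower ones and were among the 5 higher ones, also the direction of Tnfsf13b. Itgam was lower in treated Irf3-deficient than in untreated wild type cells (-0.34). Cd209a, Mgl2 and Clec10a did not pass in that comparison (0.04, 0.03 and -0.09). The part of the macrophage and cDC2 markers in the Tnfsf13b result was not tested.

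Among the costimulatory ligands, Cd70 and Tnfsf4 rose most in wild type after Tnfsf15. Cd70 binds CD27 on T cells, and its level was 9.02, 8.95 and 9.18 in treated Irf3-deficient cells, against 9.84 and 10.29 in treated wild type samples and 8.12 and 8.35 in untreated wild type cells. The groups did not overlap, and the Irf3-deficient arrays again lay between the wild type groups. It rose 3.56-fold in wild type (95% CI 2.81 to 4.51, adjusted p = 4.30e-06 in limma). Irf3-deficient cells were 2.02-fold lower than treated wild type (95% CI 1.63 to 2.51, adjusted p = 0.000287) and 1.76-fold higher than untreated wild type cells (95% CI 1.42 to 2.18, adjusted p = 0.00317). Without untreated wild type replicate 1 the last difference stood at 0.70 on the log2 scale (adjusted p = 0.0622). Nectin2 (distance 0.104), Mab21l3 (0.123) and Mfsd2a (0.137) had the nearest profiles.

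Tnfsf4, whose product OX40 ligand promotes T cell survival and T helper 2 responses, was the dimmest of the 9 probesets in untreated cells. Its level was 7.38, 7.40 and 7.58 in treated Irf3-deficient cells, 8.19 and 8.57 in treated wild type samples and 7.37 and 7.18 in untreated wild type cells. The treated wild type arrays stood apart from the other 5. Tnfsf4 rose 2.14-fold in wild type (95% CI 1.74 to 2.65, adjusted p = 0.000128 in limma) and was 1.90-fold lower in Irf3-deficient cells (95% CI 1.57 to 2.31, adjusted p = 0.00024). Its log2 difference between treated Irf3-deficient and untreated wild type cells was 0.17 (95% CI -0.11 to 0.45, adjusted p = 0.488). Tmtc2 (distance 0.0717), Mif4gd (0.0717) and Tent4a (0.0739) were nearest in profile. The untreated mean of 7.28 lies just above the 7.20 of the olfactory and vomeronasal receptor genes in that group.

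Tnfsf9, the gene of 4-1BB ligand, moved in the same directions by less. It stood at 11.96, 12.27 and 12.26 in treated Irf3-deficient, 12.63 and 12.89 in treated wild type samples and 12.16 and 12.31 in untreated wild type arrays. The treated wild type arrays were the highest, and the other groups overlapped. The log2 difference was 0.52 ± 0.13 (SE) with treatment in wild type (adjusted p = 0.0116 in limma) and -0.60 ± 0.12 between the treated genotypes (adjusted p = 0.00257). The first did not pass without untreated wild type replicate 1 (adjusted p = 0.106) or without treated wild type replicate 2 (adjusted p = 0.105). Between treated Irf3-deficient and untreated wild type cells the difference was -0.07 (95% CI -0.32 to 0.18), and its sign turned without Irf3-deficient replicate 1. Uap1 (distance 0.0747), Zfp821 (0.0747) and Adap2 (0.0749) were nearest in profile.

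Tnfsf8 and Tnfsf14 followed other courses. Tnfsf8, the gene of CD30 ligand, was 8.28, 7.96 and 7.62 in treated Irf3-deficient cells, 9.06 and 8.96 in treated wild type samples and 8.88 and 8.38 in untreated wild type cells. All Irf3-deficient arrays were lower than all wild type arrays, treated or not. Its difference with treatment in wild type was 0.38 (95% CI -0.05 to 0.81, adjusted p = 0.239 in limma). Irf3-deficient cells were 2.09-fold lower than treated wild type (95% CI 1.59 to 2.74, adjusted p = 0.0011) and 1.60-fold lower than untreated wild type cells (95% CI 1.22 to 2.10, adjusted p = 0.0308). The second of these did not pass without untreated wild type replicate 1 (log2 -0.43, adjusted p = 0.341), Irf3-deficient replicate 2 (adjusted p = 0.0776) or Irf3-deficient replicate 3 (adjusted p = 0.0991). Its nearest profiles were those of Slc27a3 (distance 0.173), H2aw (0.173) and Dbr1 (0.192).

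Genes of T and NK cells, which also make Cd70, Tnfsf8, Tnfsf14, Lta and Tnf, were checked beside these ligands. Of 9 measured T and NK cell markers of 10 listed, 3 were higher and 1 lower in treated against untreated wild type cells. There 17.6% of all genes passed. In treated Irf3-deficient against treated wild type cells 2 were higher and 3 lower, where 19.7% of all genes passed. Their summed log2 level ran from 62.54 to 63.77 in Irf3-deficient, from 64.66 to 64.76 in treated wild type and from 62.78 to 63.80 in untreated wild type arrays. Cd8a, Gzmb and Ncr1 were the 3 that rose, by 1.41, 0.98 and 0.51 in wild type, and they were lower in Irf3-deficient cells after treatment, with differences of -1.02, -1.13 and -0.49. Their direction was that of Cd70, Tnfsf15, Tnfsf10, Tnfsf4, Tnfsf9 and Lta in both comparisons. Cd4 went the other way, at -1.02 and 0.58, and Klrb1c was higher by 0.34 in Irf3-deficient cells. Cd3d, Cd3e, Cd3g and Prf1 passed in neither comparison, with differences between -0.11 and 0.11.

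Monocyte and plasmacytoid dendritic cell markers also differed. The summed log2 level of 4 measured monocyte markers, of 5 listed, ran from 41.05 to 42.51 in Irf3-deficient, from 44.65 to 45.15 in treated wild type and from 42.94 to 44.55 in untreated wild type arrays. Of these, Plac8 and Ms4a4c rose in wild type by 2.82 and 1.36 and differed by -2.68 and -1.76 between the treated genotypes. Ccr2 and F13a1 went the other way. Ccr2 stood at -1.11 and 0.79, and F13a1 at -1.92 and 0.46, the last without passing (adjusted p = 0.0615 in limma). The sum of 4 plasmacytoid markers ran from 37.94 to 38.09 in Irf3-deficient, from 37.57 to 37.59 in treated wild type and from 35.02 to 35.29 in untreated wild type arrays. Bst2, which is also an interferon-induced gene, rose by 2.44 in wild type and differed by -2.25 between the treated genotypes. Ccr9 was higher by 2.60 in Irf3-deficient than in wild type cells after treatment, and Siglech passed in neither comparison. Among 4 measured B cell markers only Ms4a1 passed, at 0.62 in wild type and -0.89 between the treated genotypes. Among 5 neutrophil markers only Cxcr2 passed, at 1.00 between the treated genotypes. Of 5 cDC1 markers, 1 rose and 2 fell in wild type, and 1 was higher and 1 lower between the treated genotypes. Of all genes, 17.6% and 19.7% passed in these comparisons. The part of the T and NK cell, monocyte, plasmacytoid, B cell, neutrophil and cDC1 markers in the ligand results was not tested.

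Tnfsf14, the gene of LIGHT, was lower in both treated groups than in untreated wild type cells. For the Irf3-deficient group, treatment and genotype differ together in that comparison. The arrays read 7.80, 7.94 and 7.97 in treated Irf3-deficient, 8.04 and 7.98 in treated wild type samples and 8.33 and 8.50 in untreated wild type cells. Every treated array of either genotype lay below both untreated arrays. Treatment lowered it in wild type by a log2 difference of -0.41 ± 0.12 (SE, adjusted p = 0.0287 in limma), and treated Irf3-deficient cells lay -0.51 ± 0.11 from untreated wild type cells (adjusted p = 0.00865). The wild type fall lost its call when either treated wild type array, untreated wild type replicate 2 or Irf3-deficient replicate 2 was left out, with adjusted p from 0.0513 to 0.147. The other call was lost without untreated wild type replicate 2 (adjusted p = 0.0688). Between the treated genotypes the difference was -0.10, with a 95% interval from -0.33 to 0.13 (adjusted p = 0.626). Map2k3 (distance 0.0415), Ebp (0.0505) and Tmem204 (0.0526) had the nearest profiles.

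Tnf, the gene of the inflammatory cytokine TNF, was higher in both treated groups than in untreated wild type cells. Levels were 11.95, 11.95 and 12.08 in treated Irf3-deficient cells, 12.10 and 12.56 in treated wild type samples and 11.44 and 11.54 in untreated wild type cells. Every treated array of either genotype stood above the untreated arrays, and the highest Irf3-deficient array lay just under the lower treated wild type array. It rose 1.78-fold in wild type (95% CI 1.46 to 2.18, adjusted p = 0.000753 in limma) and was 1.41-fold higher in treated Irf3-deficient than in untreated wild type cells (95% CI 1.18 to 1.70, adjusted p = 0.0200). The second of these calls was lost without either untreated wild type array and without Irf3-deficient replicate 2 or 3, with adjusted p from 0.0501 to 0.182. The difference between the treated genotypes, -0.34 ± 0.12 (SE), did not pass (adjusted p = 0.0757), and it turned on the treated wild type pair. It was -0.56 (adjusted p = 0.00414) without treated wild type replicate 1 and -0.11 (adjusted p = 0.700) without replicate 2. Nearest in profile were Bcl3 (distance 0.0813), Hnrnpc (0.0844) and Cstb (0.0969).

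**Figure D2:**
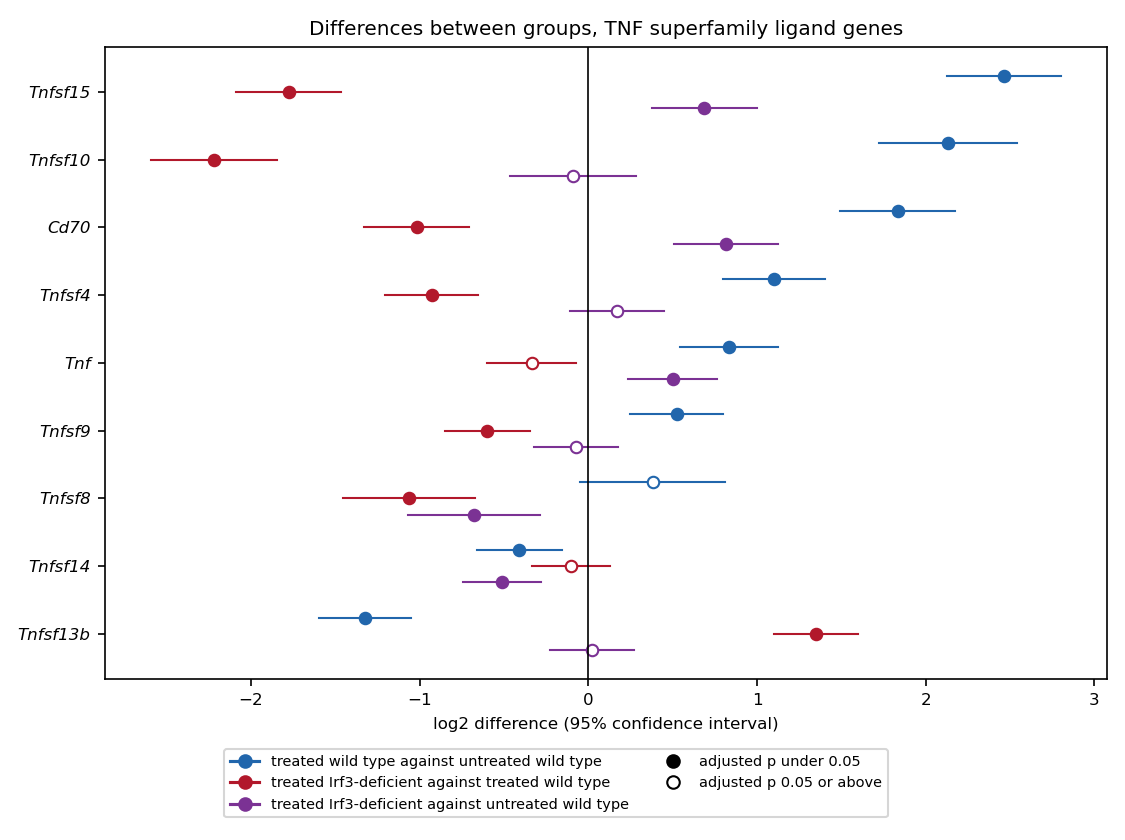
Log2 differences of the 9 ligand genes in the 3 comparisons with 95% confidence intervals from limma; filled points have an adjusted p under 0.05. Tnfsf15, Cd70 and Tnf stay above 0 in treated Irf3-deficient against untreated wild type cells, while the intervals of Tnfsf10, Tnfsf4, Tnfsf9 and Tnfsf13b span 0.

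Groups did not overlap for 9 of 9 genes in treated against untreated wild type cells and in Irf3-deficient against wild type cells after treatment, where 52.6% and 43.7% of all genes did not. They did not overlap for 6 of 9 in treated Irf3-deficient against untreated wild type cells, where 39.1% of all genes did not. With 2 or 3 arrays in a group, separation of the groups is therefore common on these arrays and adds little to the test.

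Several of these genes have neighbours in the family, and differences between neighbours were not tested. In the RefSeq annotation Tnfsf9, Cd70 and Tnfsf14 follow each other on chromosome 17, and in wild type cells treatment gave log2 differences of 0.52, 1.83 and -0.41. Tnfsf15 and Tnfsf8 are next to each other on chromosome 4, with 2.46 and 0.38. Ltb, Tnf and Lta also lie side by side on chromosome 17. Lta, which encodes lymphotoxin alpha, read 7.47, 7.23 and 7.46 in treated Irf3-deficient, 7.79 and 7.84 in treated wild type samples and 7.01 and 6.97 in untreated wild type arrays. It rose by 0.82 ± 0.12 (SE, adjusted p = 0.00027 in limma) in wild type, beside 0.84 for Tnf, from a mean under the level of the olfactory and vomeronasal receptor genes, and was lower in Irf3-deficient cells after treatment (log2 -0.43, adjusted p = 0.0118). Ltb, which encodes lymphotoxin beta, stood -0.07 from the untreated level in treated wild type cells (adjusted p = 0.795) and showed a difference of -0.36 between the treated genotypes (adjusted p = 0.0673). Tnfsf4 is next to Tnfsf18 on chromosome 1, followed by Fasl, the gene of the death ligand FasL. In wild type, treatment gave a log2 difference of 1.10 for Tnfsf4 and 0.25 for Tnfsf18 (adjusted p = 0.106), which lay under the low level in every group.

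Of 7 measured ligand genes of the family outside the 9, Lta passed in treated against untreated wild type cells, where 17.6% of all genes passed. Lta was also the one that passed in Irf3-deficient against wild type cells after treatment, where 19.7% of all genes passed. A count of 1 in 7 is near these shares. In treated Irf3-deficient against untreated wild type cells Lta was higher (0.40, adjusted p = 0.0295) and Ltb lower (-0.43, adjusted p = 0.0463). In that comparison 10.8% of all genes passed. Fasl, Tnfsf18, Cd40lg and Eda lay under the level of the olfactory and vomeronasal receptor genes in all 3 groups. Tnfsf11, the gene of RANK ligand, lay above it and differed by 0.12 with treatment in wild type (adjusted p = 0.648). Tnfsf12, the gene of TWEAK, had no probeset of its own.

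**Figure D3:**
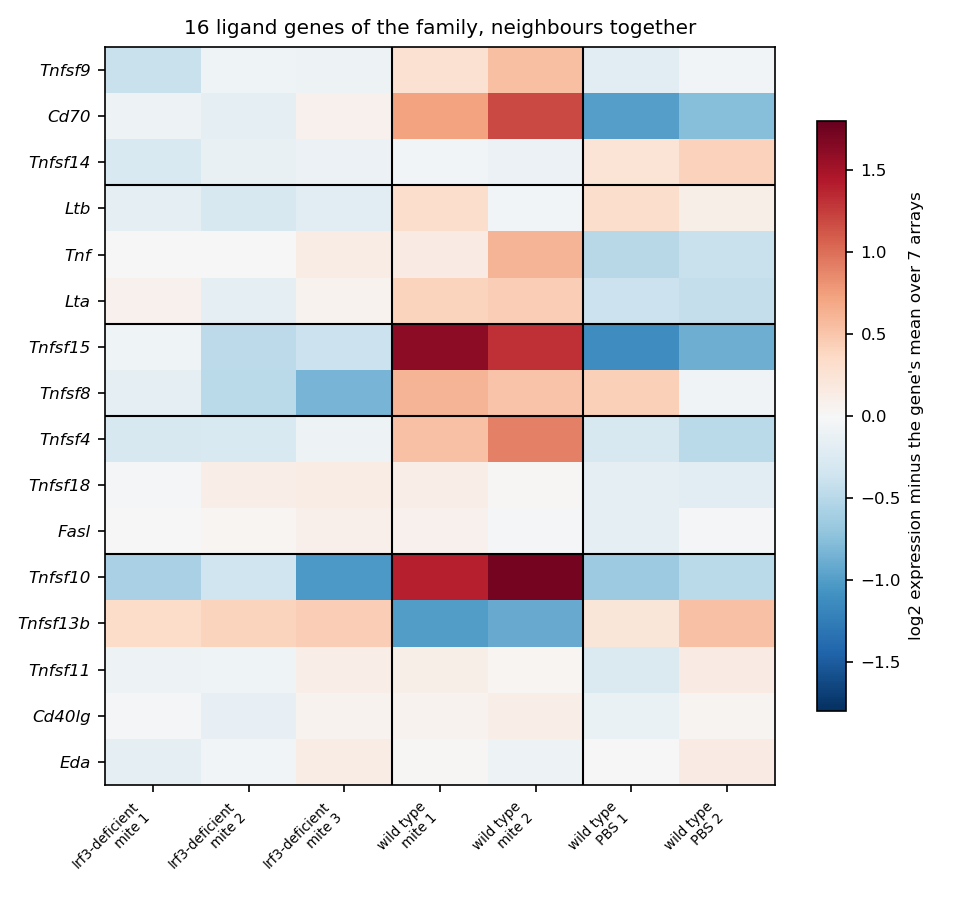
Log2 expression of 16 ligand genes of the family in each of the 7 arrays, minus the gene's mean over the arrays; horizontal lines group genes that neighbour each other, and the last block holds genes without a neighbour in the family. Tnfsf15, Tnfsf10 and Cd70 are highest and Tnfsf13b lowest in the wild type mite arrays, and Tnfsf18, Fasl, Tnfsf11, Cd40lg and Eda vary little.

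The receptors of these ligands were measured on the same cells. Of 17 receptor genes, 5 rose and 1 fell in treated against untreated wild type cells, where 17.6% of all genes passed. In treated Irf3-deficient against treated wild type cells 3 were lower and 5 higher, where 19.7% of all genes passed. In treated Irf3-deficient against untreated wild type cells 3 were higher, where 10.8% of all genes passed. The median differences of the 17 were -0.01, 0.11 and 0.12. Tnfrsf4, the gene of OX40, the receptor of OX40 ligand, read 9.02, 8.89 and 8.99 in treated Irf3-deficient, 10.55 and 10.33 in treated wild type samples and 8.74 and 8.95 in untreated wild type arrays. Its treated wild type arrays stood apart from the other 5, as those of Tnfsf4 did. The log2 difference was 1.59 ± 0.13 (SE) in wild type (adjusted p = 2.12e-06 in limma) and -1.47 ± 0.12 between the treated genotypes (adjusted p = 2.23e-06). Tnfrsf14, the gene of the LIGHT receptor HVEM, and Btla, an inhibitory receptor that binds HVEM, rose by 0.76 and 1.20 in wild type and differed by -0.45 and -0.79 between the treated genotypes.

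Other receptor genes were highest without Irf3. Tnfrsf9, the gene of 4-1BB, read 10.97, 11.03 and 11.46 in treated Irf3-deficient, 10.68 and 10.51 in treated wild type samples and 9.95 and 10.00 in untreated wild type arrays. It was higher by 0.56 ± 0.14 (SE) in Irf3-deficient than in wild type cells after treatment (adjusted p = 0.0121 in limma), where its ligand gene Tnfsf9 was lower. Without treated wild type replicate 2 that difference was 0.47 (adjusted p = 0.0986). Tnfrsf10b, the gene of the mouse TRAIL receptor that signals death, read 9.18, 8.95 and 8.75 in Irf3-deficient, 7.69 and 7.88 in treated wild type samples and 7.87 and 7.90 in untreated wild type arrays. Its 3 Irf3-deficient arrays stood above all wild type arrays, a difference of 1.18 ± 0.13 (SE) from treated wild type (adjusted p = 4.46e-05), opposite in sign to that of Tnfsf10. Tnfrsf11b, the gene of osteoprotegerin, a soluble decoy that binds RANK ligand and TRAIL, read 8.68, 8.94 and 9.25 in Irf3-deficient, 8.06 and 8.11 in treated wild type samples and 7.40 and 7.54 in untreated wild type arrays. It was higher by 0.87 ± 0.15 (SE) between the treated genotypes (adjusted p = 0.000979), and Tnfrsf22, a mouse decoy receptor of TRAIL, by 0.61 ± 0.11 (adjusted p = 0.00113). Tnfrsf22 fell with treatment in wild type (log2 -0.47, adjusted p = 0.0130). Its difference between treated Irf3-deficient and untreated wild type cells, 0.15, did not pass (adjusted p = 0.464).

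The TNF receptor genes Tnfrsf1a and Tnfrsf1b differed by -0.05 and 0.13 in treated against untreated wild type cells and by 0.11 and -0.20 in Irf3-deficient against wild type cells after treatment, with adjusted p between 0.212 and 0.828. For the BAFF receptor genes Tnfrsf13b and Tnfrsf13c the differences were -0.06 and -0.14, and 0.0015 and 0.26. Tnfrsf17, the gene of BCMA, and Cd27, the CD70 receptor gene, lay under the level of the olfactory and vomeronasal receptor genes in all groups. Tnfrsf25, the gene of the TL1A receptor DR3, differed by 0.03 and 0.02, and Tnfrsf8, the gene of CD30, by -0.02 and 0.21, without passing.

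**Figure D4:**
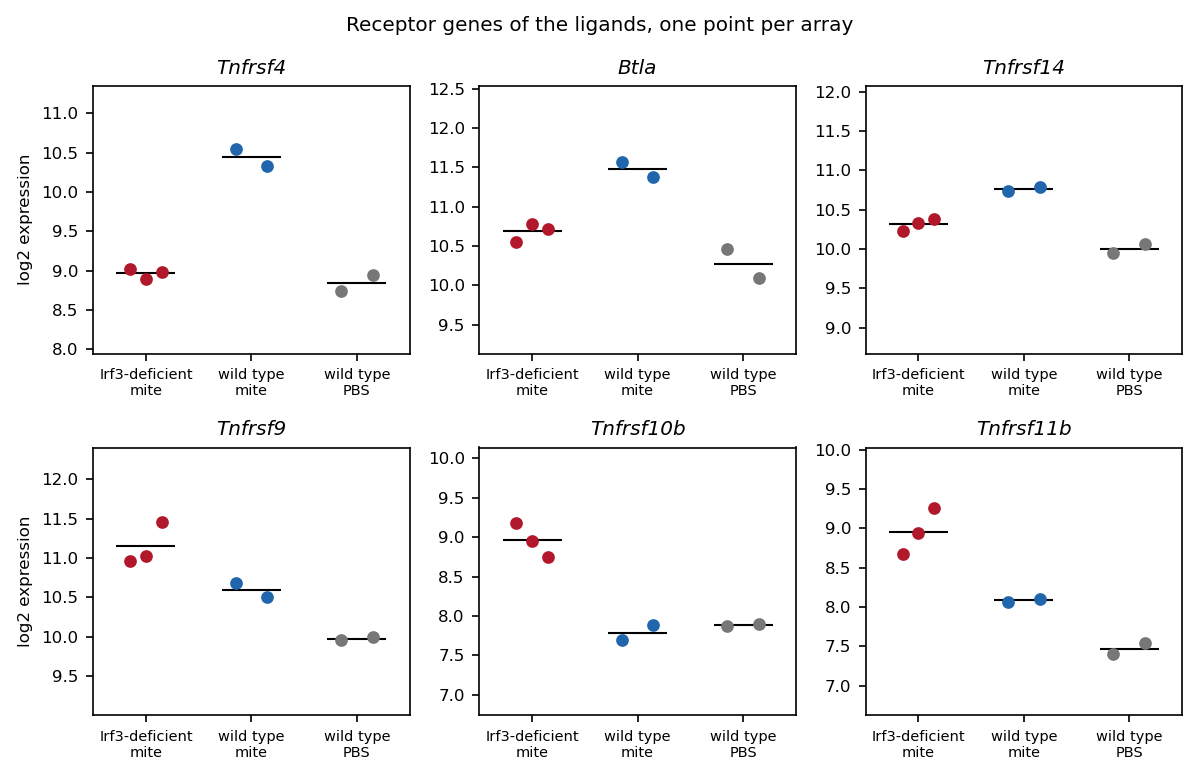
Log2 expression of 6 receptor genes of these ligands in each array, with a bar at each group mean (3 Irf3-deficient mite, 2 wild type mite and 2 wild type PBS arrays); panels span the same number of log2 units. Tnfrsf4, Btla and Tnfrsf14 are highest in the wild type mite arrays, and Tnfrsf9, Tnfrsf10b and Tnfrsf11b in the Irf3-deficient arrays.

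Lists of genes that act on the ligands and behind their receptors are given next. Their counts stand beside the 17.6% of all genes called in treated against untreated wild type cells and the 19.7% called between the treated genotypes. Of 8 genes of ligand cleavage, 2 rose and 3 fell in treated against untreated wild type cells, and 4 were higher and 1 lower in Irf3-deficient than in wild type cells after treatment. The 4 were Adam17, Furin, Rhbdf1 and Timp3, which encodes a metalloprotease inhibitor (0.46, adjusted p = 0.0459 in limma). Sppl2a, an intramembrane protease that acts on the TNF stub, rose by 0.68 in wild type (adjusted p = 0.000324 in limma) and was lower by a difference of -0.69 in Irf3-deficient cells (adjusted p = 0.000152). Furin, the protease that processes BAFF and APRIL, differed by -0.39 (adjusted p = 0.0308) and 0.35 (adjusted p = 0.0306). Adam10, another membrane protease that sheds ligands, and Rhbdf1 fell by 0.42 and 0.40 in wild type. Rhbdf2, a cofactor that Adam17 needs to mature, rose by 0.58 in wild type (adjusted p = 0.0214) and was higher by 0.51 in treated Irf3-deficient than in untreated wild type cells (adjusted p = 0.0375). Adam17, the enzyme that releases TNF, differed by -0.03 in wild type (adjusted p = 0.897) and was higher by 0.31 in Irf3-deficient cells (adjusted p = 0.0244).

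Of 15 genes that control the TNF transcript and its translation, 0 rose and 2 fell in wild type, and 3 were higher and 1 lower in Irf3-deficient cells after treatment. These shares are near those of all genes. Zfp36l2, which encodes an RNA-binding protein that destabilises transcripts, fell by 0.73 (adjusted p = 0.000106 in limma) and was higher by 0.53 in Irf3-deficient cells (adjusted p = 0.000634). Mapk14, the gene of p38 alpha, fell by 0.77 (adjusted p = 0.00625) and was higher by 0.80 (adjusted p = 0.00242). Auh, which encodes a protein that binds AU-rich RNA, was the lower one, with a difference of -0.85 between the treated genotypes (adjusted p = 0.00133). Zfp36l1, a relative of Zfp36l2, was higher by 0.36 in treated Irf3-deficient than in untreated wild type cells (adjusted p = 0.0406). Zfp36, the gene of tristetraprolin, differed by -0.06 and 0.04 without passing.

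Of 29 measured adaptor and effector genes of the receptors, of 33 listed, 12 rose and 0 fell in treated against untreated wild type cells. In treated Irf3-deficient against treated wild type cells 10 were lower and 3 higher, and against untreated wild type cells 8 were higher and 0 lower. In that last comparison 10.8% of all genes passed, 5.89% higher and 4.90% lower. The median differences of the 29 genes were 0.22, -0.16 and 0.23. Birc2, a ubiquitin ligase recruited to TNF receptors, rose by 1.38 in wild type (adjusted p = 3.83e-06 in limma). Its difference between the treated genotypes was -0.73 (adjusted p = 0.000363), and it was higher by 0.65 in treated Irf3-deficient than in untreated wild type cells (adjusted p = 0.00205). Rnf31, a subunit of the linear ubiquitin ligase, rose by 1.17 and differed by -0.84 between the treated genotypes. Traf2, a shared adaptor of these receptors, and Relb, an NF-kB subunit of the pathway that BAFF, LIGHT and OX40 ligand engage, differed by -1.02 and -0.97 between the treated genotypes. The death adaptor gene Fadd and Ikbkg, the regulatory subunit of the NF-kB kinase, were higher in Irf3-deficient cells, by 0.49 and 0.59.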

How the data were processed

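Arrays of 7 RNA pools in 3 groups were analysed. The deposited values are log2 expression levels for 35556 probesets, and per the submitters' processing notes the tools include R 3.2.1, oligo and RMA, without roles. RMA usually equalises array distributions, so a shift shared by most transcripts would not show. No genome build or batch is given in the sources used here, and the number of arrays limits the precision. Nothing in the labels says that replicate pools came from separate experiments, so p-values measure the spread between pools.

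Probesets with 1 gene symbol (21789) were kept, symbols were updated through Entrez identifiers, and the brightest probeset stood for each of 19939 genes. One model over the 7 arrays, with a mean for each group, was fitted by limma 3.58.1 in R 4.3.3 (eBayes with trend, 4 residual and 8.34 prior degrees of freedom), two-sided and adjusted by Benjamini-Hochberg over all genes. The fit was tested on simulated data. Every adjusted p comes from this fit.

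The genes and lists were chosen with earlier results of these data known. Named are the 9 ligands, further ligands, the receptors, Irf3, up to 2 genes per list, comparison and direction with the smallest p, and for each ligand the 3 nearest profiles. Zfp36, Timp3 and the single markers of all cell types were named after their values were seen. The olfactory and vomeronasal receptor level is a description, set across probesets, and is no detection call. Alternatives were other variance models, scalings, filters, probeset rules, array weights, a replicate block and leaving out each array.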

Additional observations from a re-analysis of the deposited data

How the results depend on the processing

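Of the calls made for the 9 ligands in the 3 comparisons, 174 repeats under other settings kept direction and call and 4 lost the call, while of the repeats that left out an array 124 kept it and 16 lost it. For the other listed genes the calls numbered 385 kept and 119 lost when an array was left out and 596 kept and 47 lost under other settings. The number of ligands called ranged from 7 to 8 in treated against untreated wild type cells, from 6 to 8 between the treated genotypes and from 3 to 5 in treated Irf3-deficient against untreated wild type cells, where median centring gave 3. Leaving out 1 array gave 6 to 8, 7 to 8 and 1 to 5 ligands. The 6 came without treated wild type replicate 2 and the 1 without untreated wild type replicate 1. Over all genes it gave 2333 to 3725, 2562 to 3906 and 749 to 2359 calls, against 3505, 3933 and 2153. The lowest of these came without treated wild type replicate 2 in the first and second comparison and without untreated wild type replicate 1 in the third. Array weights brought the Tnf difference between the treated genotypes to -0.35 (adjusted p = 0.0489). With only the wild type arrays in the fit, the fall of Tnfsf14 lost its call (adjusted p = 0.0581). Tnfsf4 was not tested among genes at or above the median level.

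Signs turned only for differences between treated Irf3-deficient and untreated wild type cells that had not passed. Tnfsf13b stood at -0.0059 after median centring, -0.0058 after quantile normalisation and -0.0034 with a replicate block, and Tnfsf10 at 0.0944 with that block. Leaving out 1 array moved Tnfsf9 between -0.146 and 0.0289, Tnfsf10 between -0.238 and 0.0944, and Tnfsf13b between -0.134 and 0.177. The difference between replicates 1 and 2 correlated over genes at -0.03 (Irf3-deficient and treated wild type), 0.07 (Irf3-deficient and untreated wild type) and -0.23 (the wild type groups). Equal replicate numbers thus gave no sign of pairing. Whether oppositely numbered wild type pools share a factor, as the negative value would allow, was not tested. The replicate block, over the arrays numbered 1 and 2, gave 1426 calls over all genes in treated Irf3-deficient against untreated wild type cells. With crossed numbers, chosen after seeing the data, the wild type comparison had 4328 calls and 8 of 9 ligands called. The causes of these shifts were not tested.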
